A study of Mus musculus with 36 samples.

Results

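ATAC-seq measures how open chromatin is, by the number of sequenced fragments that a transposase cuts out of each stretch of the genome. The peaks described here are the stretches of open chromatin within 500 kb of the starts of 10 genes that neuronal activity switches on, namely Fos, Fosb, Egr1, Egr2, Egr4, Arc, Bdnf, Vgf, Btg2 and Acan. They were chosen by position alone, as every peak with any part inside these 10 windows, and numbered 360 of the 58177 peaks counted in the series. The Fosb window held 62 peaks, the Acan window 48, Btg2 39, Fos 37, Egr1 35, Bdnf 33, Egr4 29, Arc 27, Vgf 26 and Egr2 24. All coordinates are those of the mouse assembly mm10 (GRCm38).

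The samples were cortical neurons of CD-1 mice, taken from pooled E15 embryos and grown for 7 days in vitro. Every culture, controls included, was silenced for 2 h with the NMDA receptor blocker AP-5 (100 µM) and the sodium channel blocker TTX (1 µM). The study's methods describe no removal of the blockers before stimulation. The stimulated cultures then received the neurotrophin BDNF (10 ng/ml) or a depolarising dose of KCl (55 mM) for 1, 6 or 10 h. The controls stayed in the blockers, unstimulated, until the same times. The design gave 9 groups of 2 samples for ATAC-seq and 9 groups of 2 for RNA-seq. The 6 controls were used together as the reference, so all 6 stimulus comparisons share their control samples. The study calls the 2 samples of a group biological replicates. What separated them (cultures, litters or days) is not stated there.

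The ATAC libraries held between 1241829 and 6236439 reads in peaks and the RNA libraries between 8508452 and 36699187 reads in genes. Summed over 6 pan-neuronal genes such as Tubb3 and Map2, the normalised RNA value was 48819 to 60480 in every library, against 7024 to 12628 for 4 astrocyte genes, 4280 to 7191 for 5 genes of the oligodendrocyte lineage and 54.9 to 102 for 4 microglial genes. The 5 excitatory genes summed to 3817 to 7139, 2 endothelial genes to 4.52 to 28.1 and 2 genes of dividing cells to 2287 to 5730, so genes of glia and of dividing cells were detected beside the neuronal ones. The 3 inhibitory genes moved with the stimuli, from 4593 to 5971 in the controls to 6913 to 8756 with BDNF and 6093 to 9808 with KCl, and the part of this in the peak changes was not tested. In such bulk samples, more cells with an open site and a more open site per cell cannot be told apart.

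Neuronal activity reaches the nucleus through calcium and kinase signalling, and BDNF through its receptor TrkB. Both act within minutes on factors that are already bound, among them CREB at CRE sites and SRF with its partners at CArG boxes, and these switch on the immediate early genes without new protein synthesis. Several of the genes studied encode factors of the next step. FOS and FOSB pair with JUN proteins and bind AP-1 sites, and the EGR proteins bind GC-rich sites. Arc encodes a synaptic protein that acts on glutamate receptors, Bdnf the neurotrophin itself, Vgf a secreted neuropeptide precursor, Btg2 an antiproliferative cofactor and Acan the proteoglycan aggrecan of perineuronal nets.

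The sequences below are examples of these sites in peaks that the results turn on, and other matches in such peaks are not printed. Each was read from the plus strand of mm10, 5′ to 3′, and capitals mark the named motif. The first set gives a motif inside the peak at the start of a gene, a CArG box for Fos and Fosb, an EGR site (GCGTGGGCG) for Egr4 and a CRE (TGACGTCA) for Btg2.
Fos start, chr12:85473566-85473606: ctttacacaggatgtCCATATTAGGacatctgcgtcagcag
Fosb start, chr7:19310293-19310333: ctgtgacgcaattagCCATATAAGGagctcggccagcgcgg
Egr4 start, chr6:85513311-85513351: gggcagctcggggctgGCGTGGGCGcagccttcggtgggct
Btg2 start, chr1:134079298-134079338: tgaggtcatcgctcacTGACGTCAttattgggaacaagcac
The second set gives an AP-1 site (TGANTCA, searched on both strands) in 8 distal peaks gained at BDNF 1 h that hold one. The locus in which each peak was counted is named. In the Bdnf locus, Lgr4 and Kif18a name the nearest protein-coding gene start, and the gene holding the intron was not recorded.
Fosb locus, chr7:19156310-19156350: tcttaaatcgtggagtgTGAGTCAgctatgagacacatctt
Egr2 locus, chr10:67717681-67717721: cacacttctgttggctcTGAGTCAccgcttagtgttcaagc
Fos locus, chr12:85956451-85956491: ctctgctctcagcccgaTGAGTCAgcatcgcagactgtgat
Acan locus, chr7:79336734-79336774: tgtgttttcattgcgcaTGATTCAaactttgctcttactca
Arc locus, chr15:74176995-74177035: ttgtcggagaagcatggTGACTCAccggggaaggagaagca
Bdnf locus, Lgr4 intron, chr2:109953226-109953266: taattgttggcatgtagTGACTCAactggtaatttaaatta
Bdnf locus, Kif18a intron, chr2:109242091-109242131: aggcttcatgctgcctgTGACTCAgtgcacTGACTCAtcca
Btg2 locus, chr1:133856253-133856293: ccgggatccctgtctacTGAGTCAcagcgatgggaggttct
The Fos start peak also held an AP-1 match, within chr12:85473411-85473451, that is not printed. A match of letters is a description and does not show that a factor was bound there.

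The third set is the Arc enhancer, inside which the study cut out a stretch with a pair of CRISPR guides. The guides, each printed with its PAM in capitals, matched the genome once, guide 1 at chr15:74679096-74679115 on the plus strand and guide 2 at chr15:74679163-74679182 on the minus strand.
Guide 1: ttgggggggctactgccagcTGG
Guide 2: cttgaacgccaccctctaacTGG
Their outer ends lie 87 bp apart, inside the peak chr15:74678947-74679500, whose centre is 6.65 kb upstream of the Arc start. The 289 bases between the outermost primers that the study placed on this enhancer follow, with a CArG box in capitals.
Arc enhancer, chr15:74679077-74679365: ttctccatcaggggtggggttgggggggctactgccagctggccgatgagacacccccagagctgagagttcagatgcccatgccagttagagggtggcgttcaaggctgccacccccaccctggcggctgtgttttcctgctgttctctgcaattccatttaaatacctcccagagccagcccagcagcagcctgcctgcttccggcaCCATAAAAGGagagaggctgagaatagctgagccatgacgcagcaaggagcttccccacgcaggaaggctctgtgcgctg
The CArG box lies outside the 87 bp between the outer ends of the guides. That stretch includes both guide sequences, and the exact ends of the deletions are not given here. Those 87 bp held no exact match to the letters searched for AP-1, CRE, EGR (GCGTGGGCG alone), E-box, CArG and MEF2. Weaker matches and motifs of other factors were not searched. The study used a broader motif search and reports bZIP (the class of FOS and JUN), EGR, Hbox-II and HIC1 motifs in this enhancer. By its account the deletion removed an EGR motif and, depending on the clone, 1 or both HIC1 motifs. It found lower Arc induction by BDNF in neurons made from the deleted stem cell clones.

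At the gene starts the changes were small, and 5 of the 10 start peaks passed the test with some stimulus. A start peak is the tested peak that overlaps the annotated start or, for Acan, Egr2, Bdnf and Vgf, the nearest one. That of Acan ended just upstream of the start. Those of Egr2, Bdnf and Vgf were centred 0.695, 2.78 and 3.79 kb downstream of it. Values are scaled counts, that is counts divided by a LOESS scaling factor. Changes are log2 fold changes from edgeR, with adjusted p-values over all 56383 peaks tested. The ± value is an SE, taken as the absolute change over the square root of the edgeR F statistic. Peaks with an adjusted p below 0.1 were called, gained if higher and closing if lower. Stimulated groups have n = 2 and the controls n = 6, given by their lowest, median and highest value.

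The peak over the Arc start (chr15:74672355-74672871) was at 62.2, 73.8 and 116 in the controls and at 121 and 131 after 1 h of BDNF. Both BDNF samples lay above every control, while those after 1 h of KCl were at 76.3 and 79.2, inside the control range. The gain with BDNF was 0.61 ± 0.18 (edgeR adjusted p = 0.0079), and BDNF stood above KCl by 0.70 ± 0.22 (edgeR adjusted p = 0.024). Both rest on BDNF 1 h library B, without which the adjusted p-values were 0.17 and 0.18, and the second also fell out without KCl 1 h library A (0.11) or B (0.16). Against the 1 h controls alone the gain had an adjusted p of 0.13 in edgeR.

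The peaks over the starts of Egr4 and Egr1 were also higher after 1 h of BDNF. At Egr4 (chr6:85513304-85513886) the controls were at 38.3, 57.9 and 63.5 and the BDNF samples at 80.8 and 83.3. The groups did not overlap, and the gain was 0.63 ± 0.22 (edgeR adjusted p = 0.041). It was no longer called without BDNF 1 h library A (0.18), BDNF 1 h library B (0.25) or control 1 h library B (0.11). After 10 h of BDNF the same peak was at 76.9 and 63.0, after 10 h of KCl at 38.6 and 29.2, a difference of 1.04 ± 0.32 (edgeR adjusted p = 0.092) that was lost without any 1 of these 4 libraries (0.14 to 0.47). At Egr1 (chr18:34859797-34861407), the widest of all 360 peaks with 1611 bp, the controls were at 415, 459 and 479 and the BDNF samples at 553 and 579. This gain of 0.32 ± 0.09 (edgeR adjusted p = 0.0035) was not called with TMM scaling (0.11), with DESeq2 size factors (0.13), with the DESeq2 Wald test (0.11) or without BDNF 1 h library B (0.13). The peak nearest the Egr2 start (chr10:67535980-67536361) was at 35.0, 47.8 and 58.5 in the controls and at 35.0 and 49.1 after 1 h of BDNF.

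The starts of Acan and Btg2 were called with KCl and not with BDNF. At Acan (chr7:79052671-79053389) the controls were at 27.6, 35.6 and 40.95 and the 1 h KCl samples at 63.9 and 69.7, above every control. The 1 h BDNF samples were at 39.7 and 47.0 and overlapped the controls. The KCl gain was 0.95 ± 0.25 (edgeR adjusted p = 0.013) and had an adjusted p of 0.20 without KCl 1 h library B. At Btg2 (chr1:134078843-134079541), the start peak with the CRE, the controls were at 151, 168 and 189 and the 1 h KCl samples at 187 and 237, so that 1 of the 2 lay inside the control range. Its gain of 0.35 ± 0.13 (edgeR adjusted p = 0.087) was lost with every other scaling and tool (0.21 to 0.35), with the 1 h controls alone (0.31) and without KCl 1 h library B (0.77), control 1 h library A (0.13), control 6 h library A (0.15) or control 10 h library A (0.102). The 1 h BDNF samples at Btg2 were at 139.9 and 176, below KCl by 0.43 ± 0.16 on the log2 scale (edgeR adjusted p = 0.063), a call that was lost with the DESeq2 Wald test (0.13), with limma (0.15) and without BDNF 1 h library A (0.47) or KCl 1 h library B (0.61).

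No call was made at the start peaks of Fos, Fosb, Egr2, Bdnf and Vgf. At Fos (chr12:85473407-85474127) the controls were at 90.1, 103 and 134 and 1 h of BDNF gave 158 and 118, 1 h of KCl 122 and 114, which overlapped. Its change with BDNF at 1 h was 0.36 ± 0.17. At Fosb (chr7:19310003-19310487) the controls were at 83.0, 107 and 113, and 1 h of BDNF gave 103 and 83.0, 1 h of KCl 95.1 and 94.6. The peak nearest the Bdnf start (chr2:109677172-109677785) was at 31.3, 54.2 and 65.1 in the controls and at 51.1 and 44.8 after 1 h of KCl, and the Vgf peak (chr5:137029813-137030547) at 103, 116 and 133 and, after 1 h of BDNF, at 112 and 138. In all of these the stimulated and control samples overlapped at 1 h.

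Close to the starts of Fosb and Bdnf, other peaks were called, and both are named here after their values were seen. An exonic peak 1.46 kb downstream of the Fosb start (chr7:19308189-19308995) was at 148, 171 and 188 in the controls and at 123 and 121 after 1 h of KCl, below every control. It closed by 0.48 ± 0.14 on the log2 scale (edgeR adjusted p = 0.0257), a call lost without KCl 1 h library A (0.19) or B (0.25). An intronic peak 3.59 kb downstream of the Bdnf start (chr2:109677960-109678614) was at 97.3, 105 and 132 in the controls and at 132 and 155 after 1 h of BDNF, so that 1 of the 2 was level with the highest control. Its gain of 0.40 ± 0.16 (edgeR adjusted p = 0.0843) was lost with TMM scaling (0.17), DESeq2 size factors (0.18), the DESeq2 Wald test (0.27), limma (0.17) and a mean of at least 20 (0.103). It was also lost without BDNF 1 h library A (0.12) or B (0.57), control 1 h library A (0.11) or B (0.15), or control 6 h library A or B (0.13 each).

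**Figure D1:**
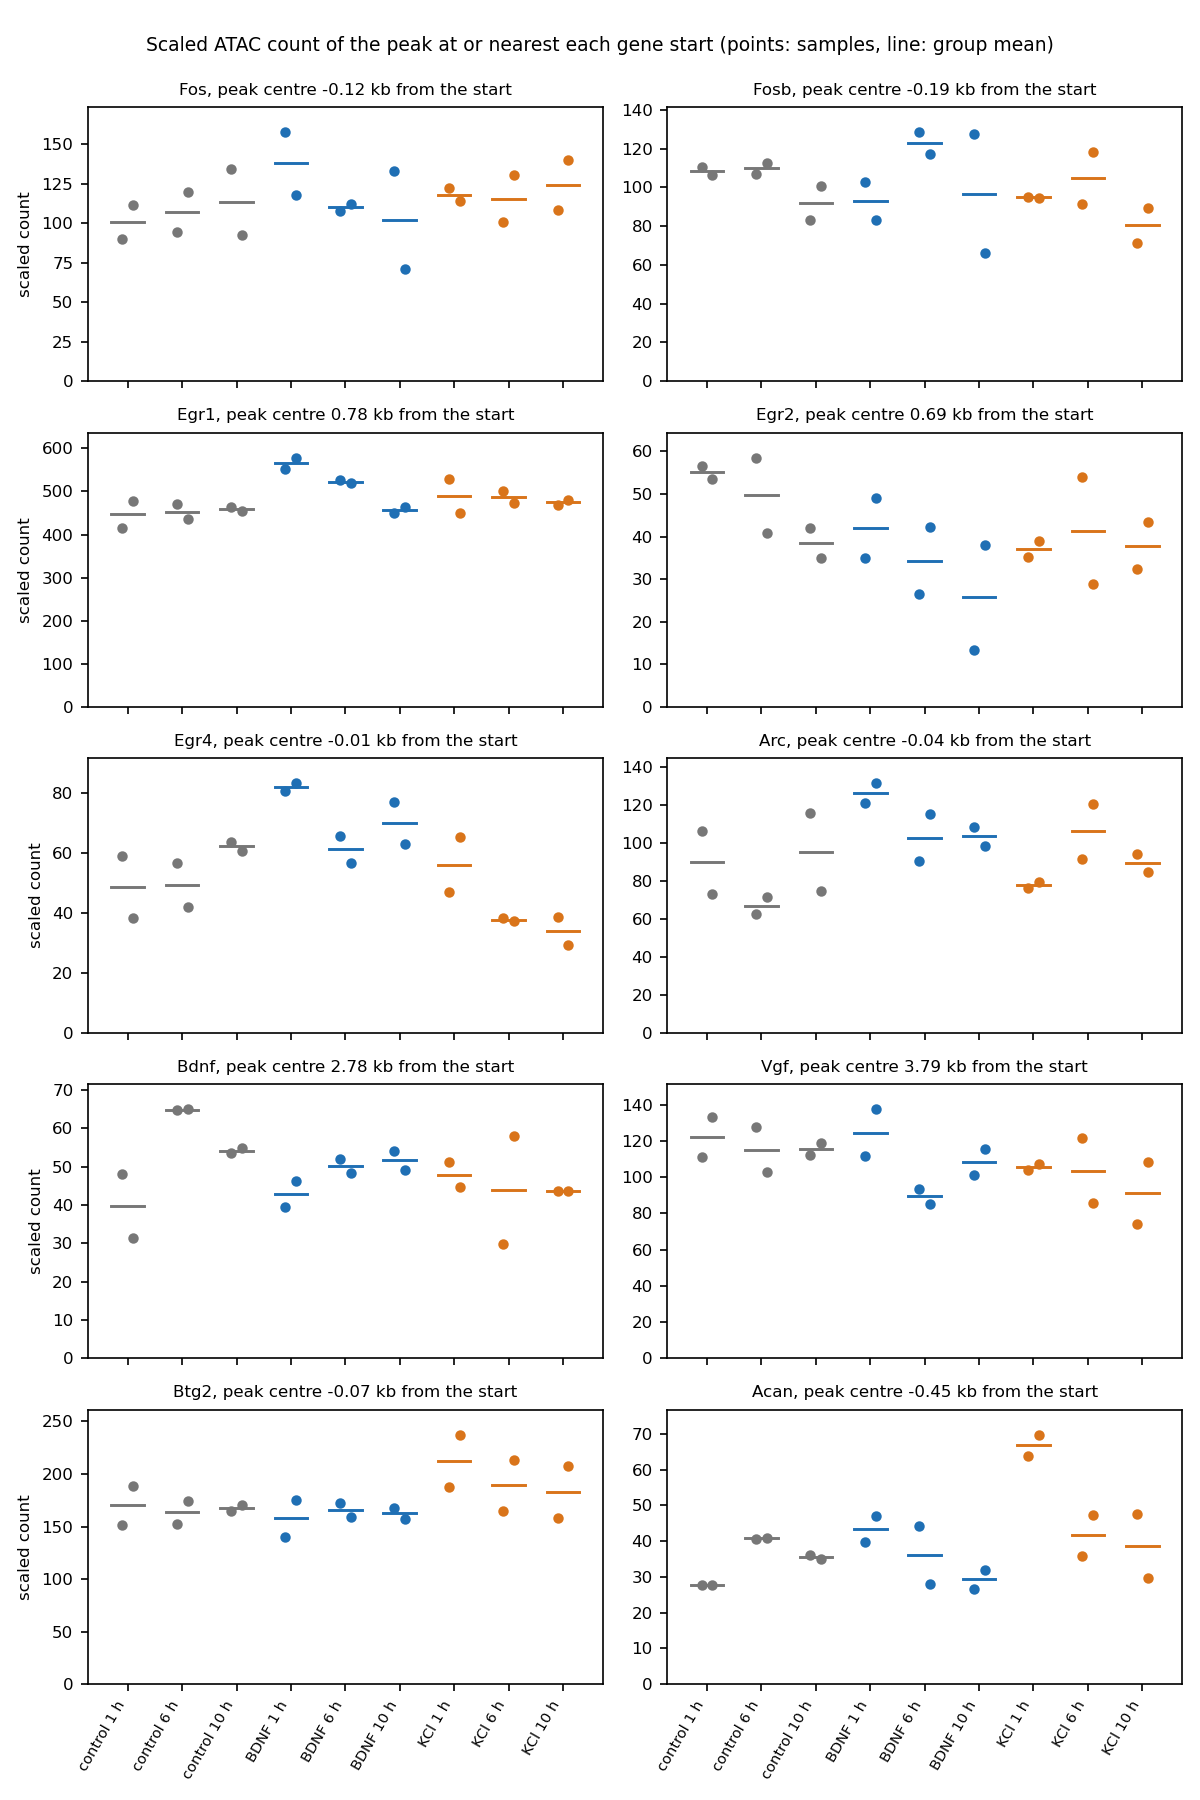
Scaled ATAC counts of the peak at or nearest each of the 10 gene starts, 1 panel per gene, with the 9 groups on the x axis, points for samples and a line for the group mean of 2. At Arc, Egr1 and Egr4 both samples of BDNF 1 h stand above all 6 controls, at Acan both samples of KCl 1 h do (63.9 and 69.7 against at most 40.95), and at Fos, Fosb, Egr2, Bdnf and Vgf the 1 h samples overlap the controls.

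The Arc enhancer, like the Arc start, was gained after 1 h of BDNF. The controls were at 30.4, 42.4 and 45.5, the samples after 1, 6 and 10 h of BDNF at 101 and 81.1, 47.2 and 53.7, and 70.0 and 50.6. With KCl the samples were at 49.4 and 63.8, 73.8 and 45.1, and 56.2 and 41.2 at 1, 6 and 10 h. Every BDNF sample was above the highest control, whereas 1 of the 2 KCl samples at 6 h and at 10 h was not. The change at BDNF 1 h was 1.21 ± 0.23 (edgeR adjusted p = 1e-05), and this call was kept under every alternative run. No other comparison at this peak was called by edgeR, where BDNF against KCl at 1 h had a difference of 0.67 and an adjusted p of 0.105 and KCl at 6 h a change of 0.69 and an adjusted p of 0.107.

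Around Fos, elements away from the start were called although the start was not. FOS is the founding member of its family of AP-1 proteins, and its gene is known for several upstream enhancers that answer to different stimuli. The peak 37.5 kb upstream (chr12:85436080-85436614) was at 36.0, 44.7 and 57.4 in the controls and at 102 and 90.9 after 6 h of KCl, against 70.6 and 36.4 after 6 h of BDNF. It was gained at KCl 6 h (1.12 ± 0.23, edgeR adjusted p = 0.00055), KCl 10 h (0.81 ± 0.23, edgeR adjusted p = 0.018) and BDNF 1 h (0.74 ± 0.22, edgeR adjusted p = 0.012), and at KCl 1 h it had a change of 0.62 (edgeR adjusted p = 0.084). Each of these calls was lost without library A of its own group (0.15, 0.39, 0.18 and 0.38 in that order). The KCl 1 h call was also lost without KCl 1 h library B (0.26), control 1 h library B (0.11), control 6 h library B (0.13) or control 10 h library A (0.12), and BDNF lay below KCl at 6 h by 0.91 ± 0.28 on the log2 scale (edgeR adjusted p = 0.0705), which was lost without BDNF 6 h library B (0.62), KCl 6 h library A (0.33) or KCl 6 h library B (0.16).

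The 18.4 kb upstream peak of Fos (chr12:85455008-85455985) was wide open in every sample, at 288, 349 and 405 in the controls, 267 and 332 after 6 h of BDNF and 420 and 398 after 6 h of KCl. BDNF was lower than KCl there by 0.45 ± 0.13 on the log2 scale (edgeR adjusted p = 0.041), a call lost with TMM scaling (0.28), with DESeq2 size factors (0.30), with the DESeq2 Wald test (0.39) and without BDNF 6 h library A (0.46), KCl 6 h library A (0.26) or KCl 6 h library B (0.11). On the other side of the gene, 14.0 kb downstream (chr12:85487759-85488044), the controls were at 13.4, 27.4 and 29.4 and the 1 h BDNF samples at 43.3 and 47.7. They did not overlap, with a gain of 0.86 ± 0.31 (edgeR adjusted p = 0.042) that was lost with the 1 h controls alone (0.36) and without BDNF 1 h library A (0.14), BDNF 1 h library B (0.29) or control 6 h library A (0.12). These 3 peaks around Fos were picked out by the rule or because they were called within 100 kb, the 37.5 kb and 14.0 kb ones after their values were seen.

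The largest gains lay far from the gene starts, and mostly in other genes. The largest at BDNF 1 h was an intronic peak of Rlbp1, a retinoid-binding protein gene, 283 kb downstream of the Acan start (chr7:79336452-79336934), which holds 4 AP-1 sites. Its controls were at 3.89, 5.32 and 10.2 scaled counts, its samples after 1, 6 and 10 h of BDNF at 57.5 and 45.9, 32.8 and 24.2, and 12.8 and 28.6. After 1, 6 and 10 h of KCl it was at 14.6 and 6.14, 35.7 and 38.2, and 45.2 and 21.2. All stimulated samples but 1, at KCl 1 h, lay above the highest control. The gain at BDNF 1 h was 3.05 ± 0.37 (edgeR adjusted p = 1.6e-11), at KCl 6 h 2.56 ± 0.42 (edgeR adjusted p = 6.7e-06) and at KCl 10 h 2.41 ± 0.40 (edgeR adjusted p = 5.4e-06), and at KCl 1 h the change of 0.68 was not called. BDNF exceeded KCl at 1 h by 2.37 ± 0.46 (edgeR adjusted p = 8.5e-05).

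An intronic peak nearest Lgr4, which encodes a receptor of the R-spondin and Wnt pathway, lay 279 kb downstream of the Bdnf start (chr2:109953122-109953658). It was at 30.0, 39.4 and 64.3 in the controls, at 127 and 126, 105 and 97.96, and 144 and 93.2 after 1, 6 and 10 h of BDNF, and at 63.2 and 41.9, 88.2 and 86.6, and 75.9 and 119 after KCl. Only the 1 h KCl samples overlapped the controls. The gain with BDNF was 1.55 ± 0.20 at 1 h (edgeR adjusted p = 1.4e-10), 1.24 ± 0.20 at 6 h and 1.44 ± 0.22 at 10 h, and with KCl 1.03 ± 0.23 at 6 h (edgeR adjusted p = 0.0018, and 0.15 without library A of that group) and 1.18 ± 0.22 at 10 h (edgeR adjusted p = 3.9e-05, and 0.14 without KCl 10 h library B). The 1 h difference of BDNF from KCl was 1.29 ± 0.25 (edgeR adjusted p = 7.1e-05).

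Further AP-1 peaks were gained by BDNF from a low level. An exonic peak nearest Snrpd2, a gene of the splicing machinery, 154 kb downstream of the Fosb start (chr7:19156093-19156395), went from 1.06, 5.61 and 9.17 in the controls to 39.8 and 43.1 at BDNF 1 h, a change of 2.92 ± 0.44 (edgeR adjusted p = 3.1e-08). With KCl at 1 h it was at 13.8 and 4.63, which overlapped the controls. The peak 182 kb downstream of the Egr2 start (chr10:67717537-67717822) went from 1.77, 6.00 and 12.5 to 40.95 and 39.4 at BDNF 1 h, a change of 2.67 ± 0.41 (edgeR adjusted p = 7.7e-08), and was at 6.92 and 6.30 at KCl 1 h, a difference between the stimuli of 2.59 ± 0.54 (edgeR adjusted p = 0.00026). An intronic peak nearest Tgfb3, 483 kb from Fos (chr12:85956344-85956544), went from 8.13, 11.6 and 14.6 to 43.7 and 47.9. Its change was 2.01 ± 0.36 (edgeR adjusted p = 2.4e-06). Such peaks start from few counts, so their folds are less precise than those of the wide start peaks.

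Some distal peaks were called at all times with both stimuli. The peak 495 kb from Arc (chr15:74176928-74177376) had 18.5, 27.7 and 35.6 in the controls, 71.8 and 76.9 at BDNF 1 h and 61.3 and 64.9 at KCl 10 h, with all stimulated samples above all controls. BDNF changed it by 1.43, 1.24 and 0.99 and KCl by 1.01, 0.95 and 1.198 after 1, 6 and 10 h (edgeR adjusted p from 6.6e-07 to 0.0245). Of these, BDNF 10 h was lost without its library A (0.16), KCl 1 h without its library B (0.33) and KCl 6 h without its library A (0.20) or B (0.14), and with controls of the same time alone BDNF 10 h (0.14) and KCl 6 h (0.26) were not called. An exonic peak nearest Polg, the gene of the mitochondrial DNA polymerase, 470 kb from Acan (chr7:79523769-79524067) went from 4.67, 11.7 and 18.1 to 64.5 and 71.9 at BDNF 1 h, a change of 2.52 ± 0.30 (edgeR adjusted p = 1e-11), and held none of the 6 motifs. It was gained in the other 5 comparisons too, by 1.18 to 1.83, where the KCl calls were lost without KCl 1 h library A (0.13), KCl 6 h library A (0.24), KCl 10 h library A (0.15) or KCl 10 h library B (0.25), and at 6 and 10 h with controls of the same time (0.12 and 0.32).

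**Figure D2:**
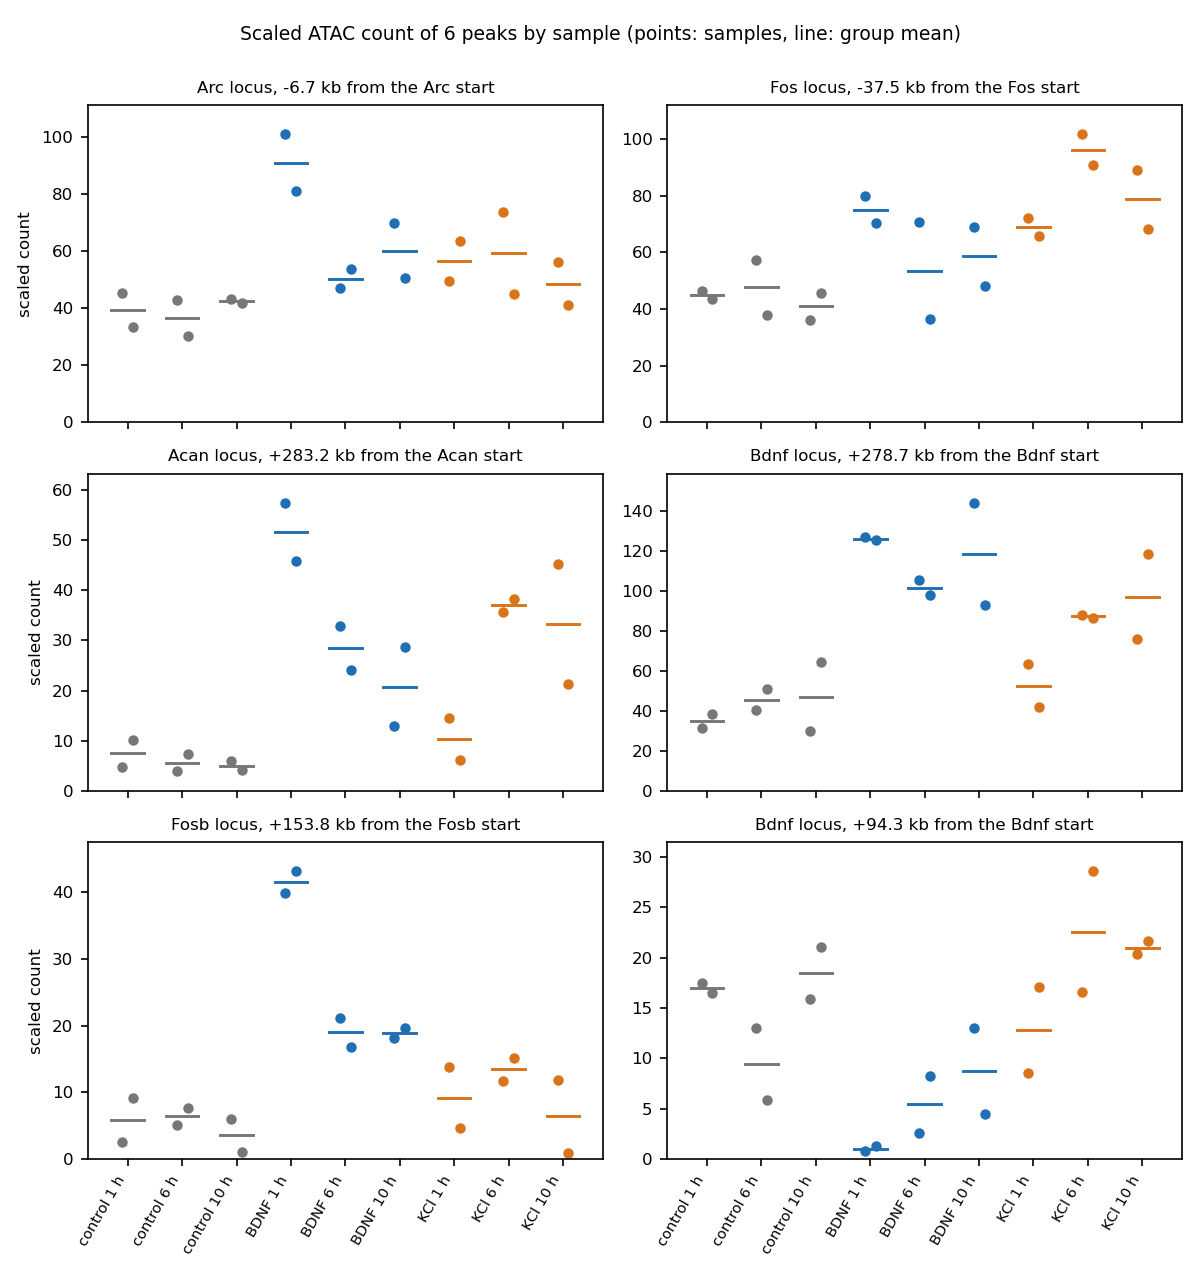
Scaled ATAC counts of 6 peaks by sample, with the 9 groups on the x axis, points for samples and a line for the group mean of 2. The Arc enhancer peaks at BDNF 1 h (101 and 81.1), the peak 37.5 kb upstream of Fos at KCl 6 h (102 and 90.9), the distal peaks of the Acan, Bdnf and Fosb loci at or near BDNF 1 h, and the peak 94.3 kb from the Bdnf start is lowest at BDNF 1 h (0.817 and 1.27).

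Other peaks closed. The closing peak with the lowest p around Bdnf, 94.3 kb downstream of its start (chr2:109768909-109769153), had 5.83, 16.2 and 21.0 in the controls and 0.817 and 1.27 after 1 h of BDNF, with no overlap. After 1 h of KCl it was at 8.57 and 17.1, inside the control range. It fell by 3.67 ± 0.74 on the log2 scale with BDNF at 1 h (edgeR adjusted p = 4.2e-05) and was lower than with KCl by 3.48 ± 0.81 (edgeR adjusted p = 0.0014, and 0.11 without KCl 1 h library B). The lowest count in the deposited ATAC values was 1. Both 1 h BDNF samples stood near that floor, so the size of these differences is poorly measured. At the Sfxn5 promoter in the Egr4 window (chr6:85265037-85265540) the controls were at 27.6, 35.6 and 46.9 and the 10 h BDNF samples at 9.74 and 13.3, a fall of 1.62 ± 0.42 (edgeR adjusted p = 0.0043, and 0.13 without BDNF 10 h library A). Nearest to Jdp2, which encodes a repressor that binds AP-1 sites, a peak 98.4 kb from the Fos start (chr12:85572253-85572425) fell by 2.18 ± 0.57 at BDNF 10 h, from 13.3, 23.9 and 39.1 to 3.14 and 7.09 (edgeR adjusted p = 0.005, and 0.17 without BDNF 10 h library A). With the 10 h controls alone both of these falls had an adjusted p of 0.13 in edgeR.

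Counted over all windows, 353 of the 360 peaks had a mean count of at least 10 and were tested, and 84 of them were called in at least 1 of the 6 comparisons with the controls, 51 as gained and 33 as closing. At BDNF 1 h 36 were gained and 7 closing, where 12.5% of all peaks were gained and 4.78% closing. At BDNF 6 h the counts were 18 and 1 (8.88% and 1.75% of all peaks) and at BDNF 10 h 13 and 9 (7.46% and 1.9%). With KCl they were 12 and 8 at 1 h (5.29% and 3.05% of all peaks), 11 and 4 at 6 h (5.44% and 2.06%) and 13 and 9 at 10 h (5.91% and 1.96%). As shares of the tested members these were 10.2%, 5.1%, 3.68%, 3.4%, 3.12% and 3.68% gained, each below the share of all peaks. The median change of the 353 peaks lay between -0.08 and -0.01 in the 6 comparisons.

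**Figure D3:**
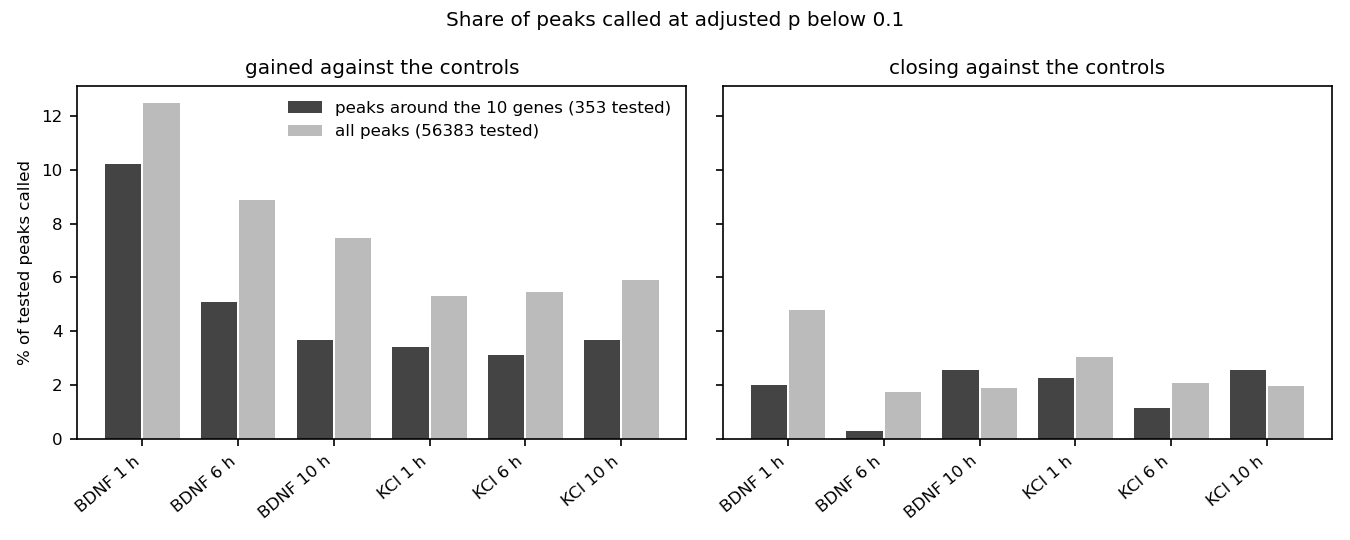
Share of tested peaks gained (left) and closing (right) in each comparison with the controls, in percent, for the 353 peaks around the 10 genes (dark bars) and for all 56383 peaks tested (light bars). The dark bars for gained peaks are lower than the light bars in each comparison, at BDNF 1 h 10.2% against 12.5%.

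Leaving out 1 library changed these counts. The 43 calls at BDNF 1 h became 25 or 23 without its library A or B, the 19 at BDNF 6 h became 9 and the 22 at BDNF 10 h became 10 without library A of the group. Without KCl 1 h library A or B the 20 calls became 4 each, without KCl 6 h library A or B the 15 became 5 or 8, and without KCl 10 h library A or B the 22 became 5 or 6. The split between the directions also moved with the scaling. With TMM or DESeq2 size factors in place of LOESS, gained and closing peaks numbered 34 and 15 or 34 and 18 at BDNF 1 h, 18 and 4 or 18 and 5 at BDNF 6 h, and 14 and 11 or 14 and 16 at BDNF 10 h. For KCl they numbered 13 and 18 or 13 and 22 at 1 h, 15 and 14 or 14 and 20 at 6 h, and 14 and 25 or 14 and 33 at 10 h.

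Counts were also made by locus, and differences between loci were not tested. Over the 6 comparisons with the controls, 23.8% of the 353 peaks and 31.3% of all 56383 were called at least once. The Bdnf window had 13 of 31 tested peaks called (7 gained and 6 closing), Fosb 16 of 61 (5 and 11), Acan 12 of 48 (9 and 3), Vgf 6 of 25 (1 and 5) and Arc 6 of 26 (5 and 1). Egr2 had 5 of 24 (4 and 1), Egr1 7 of 35 (7 and 0), Fos 7 of 36 (6 and 1), Btg2 7 of 38 (5 and 2) and Egr4 5 of 29 (2 and 3). Around Vgf 0 of 25 peaks were gained at BDNF 1 h by edgeR, with 0 at an unadjusted p under 0.05 and 0 by DESeq2. In the whole windows the sum of scaled counts stayed between 0.883 times the control mean (Bdnf at KCl 6 h) and 1.09 times (Arc at KCl 6 h).

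Peaks were counted by distance from the gene start. Of the 37 tested peaks within 20 kb of a start, edgeR called 8 gained at BDNF 1 h and 2 at KCl 1 h (12.5% and 5.29% of all peaks), and DESeq2 5 and 1. At 6 and 10 h edgeR called 0 of the 37 gained with either stimulus. Of all peaks, 8.88% and 7.46% were gained with BDNF at these times, and 5.44% and 5.91% with KCl. Higher at an unadjusted p under 0.05 were 3 and 1 of 37 for BDNF and 3 and 1 for KCl. DESeq2 called 0 gained with BDNF, 0 with KCl at 6 h and 1 with KCl at 10 h. Compared directly, 10 h against 1 h, edgeR and DESeq2 called 0 of the 37 with either stimulus. By edgeR 0.919% of all peaks were called for BDNF and 1.65% for KCl. At an unadjusted p under 0.05, 5 of the 37 were lower and 0 higher for BDNF, and 3 and 0 for KCl. Of the 260 tested peaks more than 100 kb away, 24 were gained at BDNF 1 h. A peak whose nearest gene start was that of its own locus gene was gained in 10 of 46 cases at BDNF 1 h (21.7%), the others in 26 of 307 (8.47%), beside 12.5% of all peaks, and the difference was not tested.

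**Figure D4:**
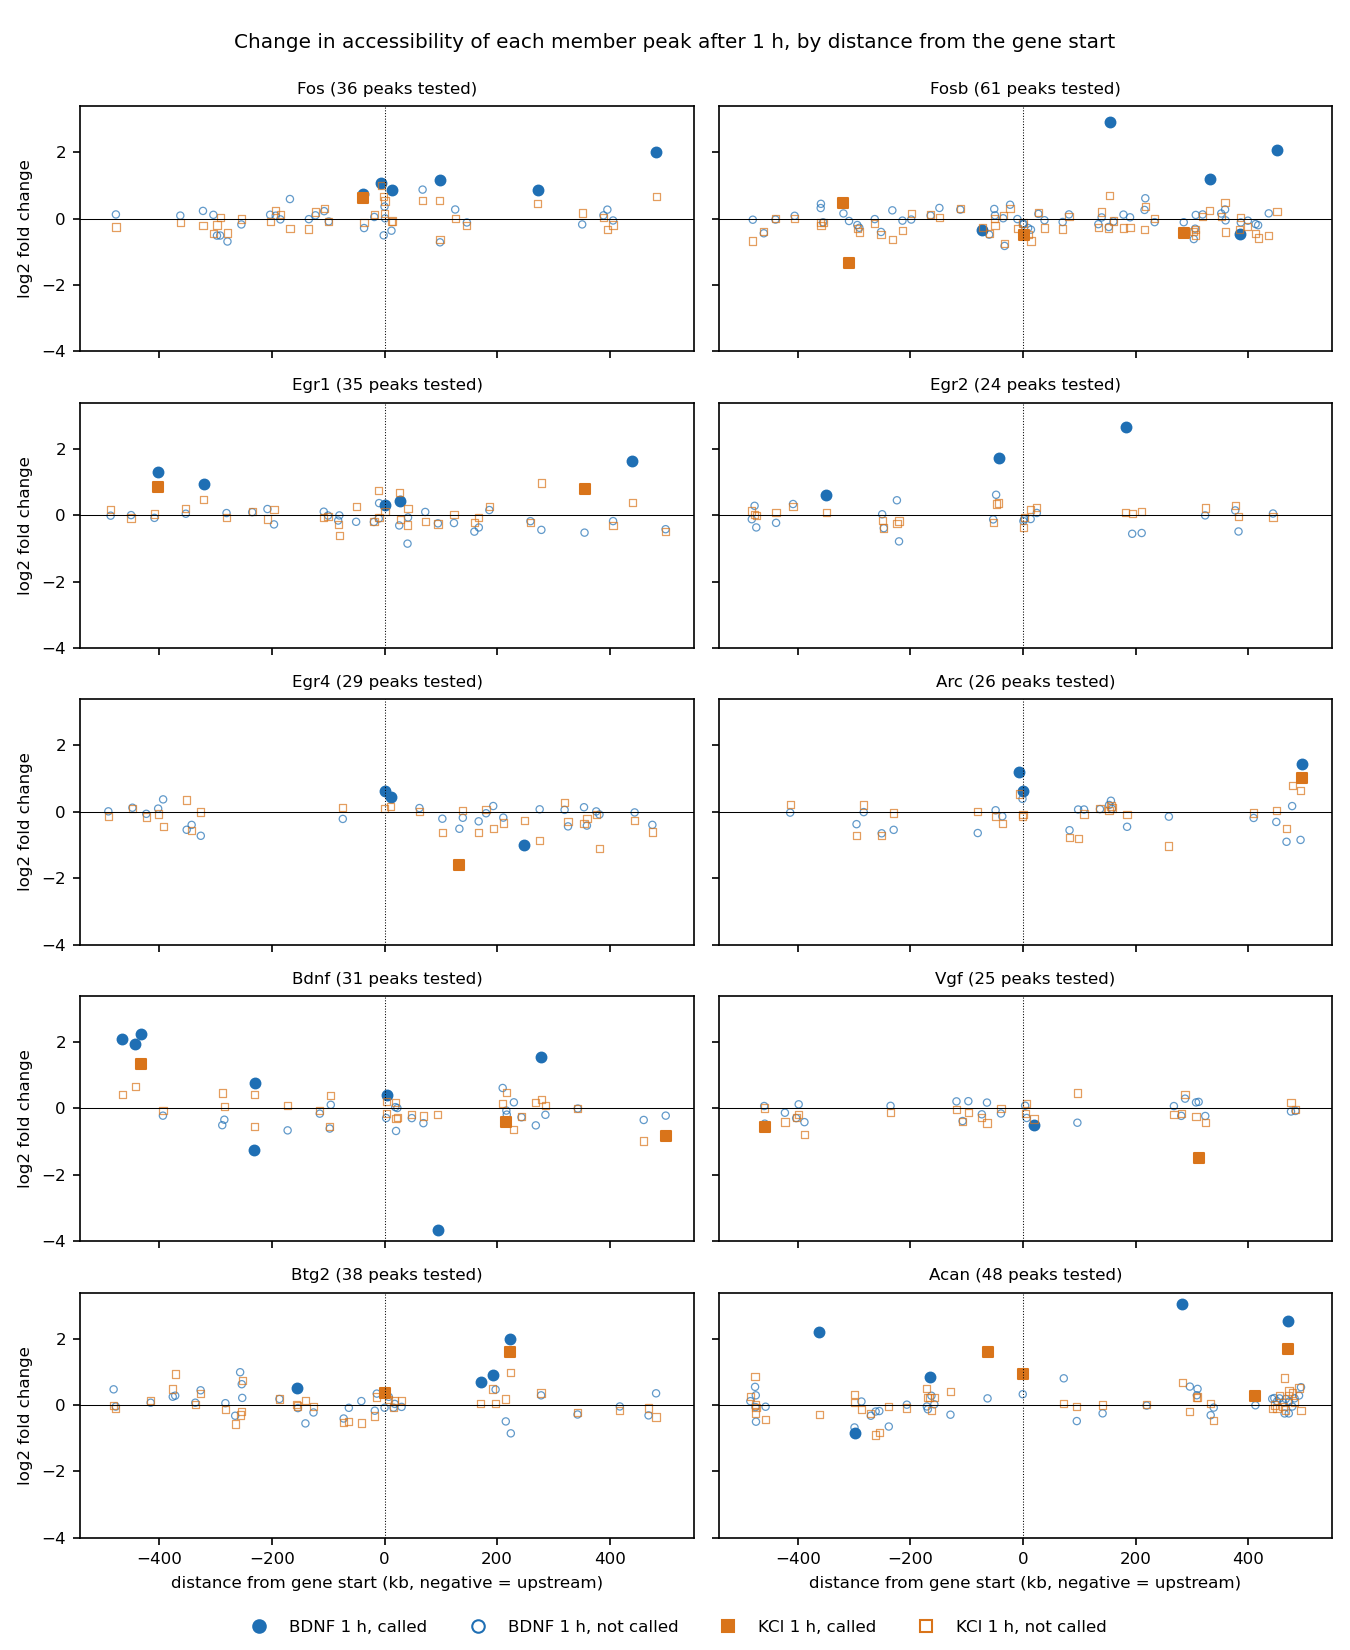
Log2 fold change of each tested peak at BDNF 1 h (blue circles) and KCl 1 h (orange squares) against its distance from the gene start in kb, 1 panel per gene, filled where the peak was called. Called peaks are spread over the whole windows, with the largest gain 283 kb from the Acan start (3.05 at BDNF 1 h).

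The windows are rich in genes, and the peaks differ from the series in ways the choice by position did not set. Of the 360 peaks, 43.6% lay at a promoter against 26.5% of all 58177, their median GC content was 56.5% against 48.5%, and their median width 460.5 bp against 369 bp. Within 150 bases of the peak centre, AP-1 sites were in 8.61% of them (31 peaks) against 16.4% of all peaks, while CRE sites were in 2.78% against 0.987% and CArG boxes in 3.06% against 1.43%. At BDNF 1 h the promoter peaks were gained in 11 of 157 cases, 7.01% against 4.77% of all promoter peaks of the series, and the other peaks in 25 of 196, 12.8% against 15.4% of all other peaks.

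Gained peaks were counted with and without an AP-1 site. Of the 30 tested peaks with an AP-1 site, 17 were gained at BDNF 1 h, 12 at 6 h and 10 at 10 h, and of the 323 without one 19, 6 and 3. With KCl the counts were 4, 5 and 7 of 30 against 8, 6 and 6 of 323. The share of these 30 gained was thus 56.7% at BDNF 1 h, and at KCl 13.3%, 16.7% and 23.3% in order of time. Over the whole series, after 1, 6 and 10 h of BDNF edgeR called gained 51.6%, 41.6% and 34.2% of the 9178 peaks with an AP-1 site and 4.89%, 2.53% and 2.25% of the 47205 without one. For KCl the corresponding shares were 13.4%, 20.5% and 23.3%, against 3.72%, 2.50% and 2.53%. The motif was found in none of the 29 peaks of the Egr4 window and in 6 of the 33 peaks of the Bdnf window.

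The RefSeq table of promoter sequences, 250 bases before to 50 after each start on GRCm38.p6, held 7 of the 10 genes. Arc, Egr1 and Vgf had no matched entry, so their promoters were not searched there. CRE sites were in 1 of these 7 (Btg2) and in 1.79% of all 32851 promoters, E-boxes (CACGTG) in 1 (Egr2) and in 7.15%, and AP-1 sites and CArG boxes in none, against 7.81% and 1.63%. The CArG boxes of the Fos and Fosb start peaks, printed above, lie outside these windows.

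Set against each other directly, the stimuli were called different at more peaks at 1 h than later. The stimulated libraries held 3823920 to 6236439 reads in peaks at 1 h and 2023008 to 3214094 at 10 h. At 6 h they held 1241829 to 5827363. Read depth thus differed between the times, and its part in the numbers of calls by time was not tested. At 1 h 20 of the 353 peaks were higher with BDNF than with KCl and 9 lower (9.3% and 5.55% of all peaks), at 6 h 1 and 2 (2.25% and 1.37%) and at 10 h 1 and 2 (1.16% and 0.83%). With TMM scaling 25 were higher and 7 lower at 1 h, and the later splits became 7 and 4, then 5 and 2. The 29 calls at 1 h became 6 without KCl 1 h library B, 13 without BDNF 1 h library A and 14 without BDNF 1 h library B. Higher with KCl was the promoter of Lrrtm2, a gene for a synaptic adhesion protein, 355 kb from Egr1 (chr18:35214625-35215425), at 99.8 and 70.8 with KCl and 38.7 and 29.2 with BDNF at 1 h. The controls there were at 24.96, 47.0 and 67.5, below both KCl samples, and BDNF was lower than KCl by 1.33 ± 0.31 on the log2 scale (edgeR adjusted p = 0.0014). In the Acan window a peak 63.0 kb upstream of the start (chr7:78990370-78990548) was at 25.8 and 29.1 with KCl at 1 h, above its controls at 3.89, 8.15 and 14.7, a gain of 1.59 ± 0.43 (edgeR adjusted p = 0.014) that was lost without KCl 1 h library A (0.104) or B (0.20). The Ccdc61 promoter in the Fosb window (chr7:18910186-18910911) was at 436 and 420 after 6 h of BDNF against 333 and 236 after KCl, a difference of 0.52 ± 0.13 (edgeR adjusted p = 0.0115) that was lost without BDNF 6 h library A (0.11) or KCl 6 h library B (0.27).

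Time changed few of the peaks directly. Between 10 h and 1 h of BDNF 2 of 353 were called (0.919% of all peaks) and between 10 h and 1 h of KCl 5 (1.65%). Among the controls, edgeR called 0 of the 353 at 6 h against 1 h, with 14 at an unadjusted p under 0.05 and 0 by DESeq2 (0.0% of all peaks), and 0 at 10 h against 1 h, with 24 at an unadjusted p under 0.05 and 0 by DESeq2 (0.039% of all peaks).

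The RNA of the 10 genes is given as a description, since the genes were chosen with their RNA known. Values are read counts divided by a size factor, and differences are in log2(value + 1). At 1 h all 10 passed the limma test with either stimulus, where 40.4% of all 16209 genes tested did with BDNF and 54.7% with KCl. At 6 h 9 of 10 passed with BDNF and 9 with KCl (43.3% and 66.5% of all genes) and at 10 h 8 and 9 (40.6% and 57.2%).

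The RNA of the AP-1 genes was higher after KCl than after BDNF. Fos was at 25.1, 33.3 and 43.3 in the controls, at 1715 and 1738 after 1 h of BDNF and at 5742 and 5274 after 1 h of KCl, with differences of 5.63 and 7.30. After 10 h of BDNF it was at 119 and 113, after 10 h of KCl at 948 and 995. Fosb went from 4.93, 6.40 and 10.8 to 754 and 901 with BDNF and to 5421 and 6088 with KCl at 1 h, and by 6 h of BDNF it was at 6.31 and 7.32, inside the control range. The start peaks of both genes overlapped their controls at those times.

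The RNA of the EGR genes and Arc was higher after BDNF than after KCl at 1 h. Egr2 went from 8.30, 11.5 and 15.6 to 3868 and 3913 with BDNF and to 253 and 209 with KCl at 1 h, differences of 8.27 and 4.20. Egr1 rose by 5.56 and 2.94 and Egr4 by 8.04 and 5.37 at 1 h. Arc was at 25.1, 34.2 and 39.4 in the controls, at 6244 and 6474 after 1 h of BDNF and at 182 and 141 after 1 h of KCl, differences of 7.56 and 2.26, and stayed at 621 and 596 after 10 h of BDNF. Its start peak and its enhancer were both gained at BDNF 1 h and neither was called at KCl 1 h.

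The effector genes differed in time. Bdnf was at 38.5, 62.5 and 65.1 in the controls, at 158 and 172 after 1 h of BDNF and at 1704 and 1721 after 6 h of KCl, and its differences with KCl were 3.00, 4.86 and 4.60 at 1, 6 and 10 h. Vgf rose by 5.65, 5.13 and 4.81 with BDNF and by 2.56, 4.097 and 4.22 with KCl. Acan was at 7.26, 12.9 and 20.4 in the controls, at 134 and 134 after 1 h of BDNF, at 27.2 and 26.7 after 1 h of KCl and at 507 and 297 after 10 h of KCl, while its start peak was called at KCl 1 h alone. Btg2 rose by 1.24 at BDNF 1 h and fell by 1.75 at KCl 1 h, the comparison in which its start peak was called gained.

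**Figure D5:**
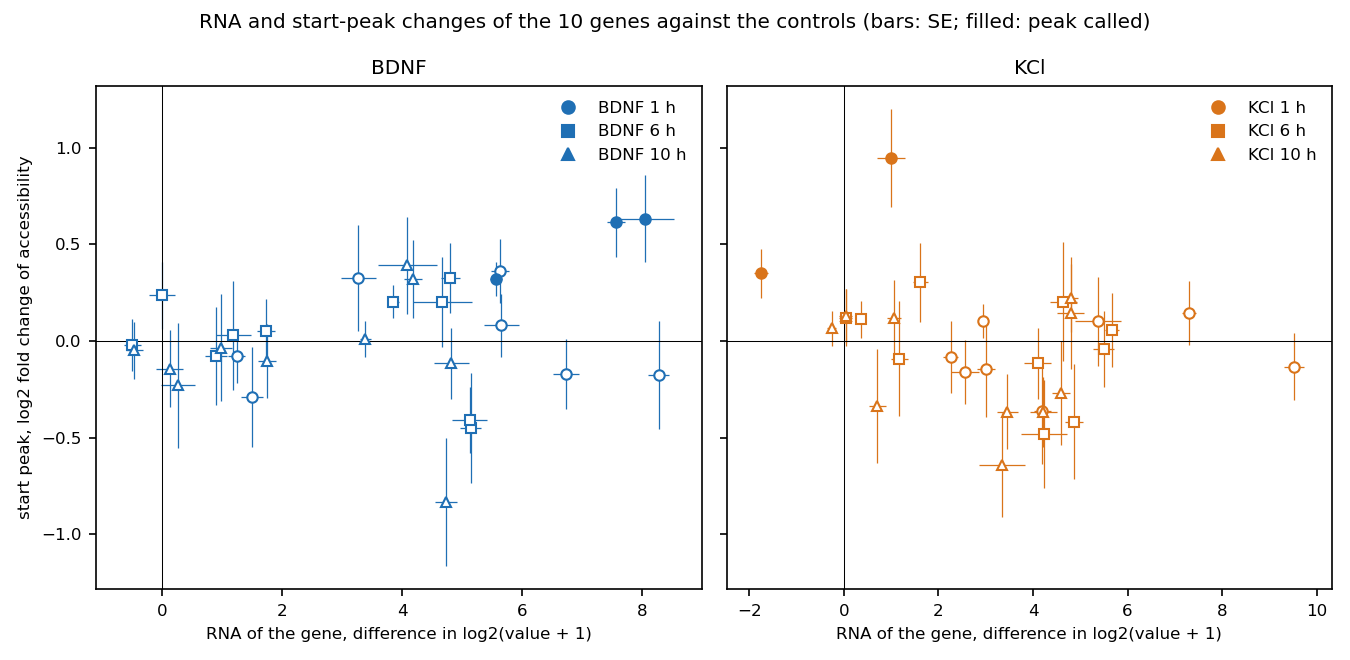
Log2 fold change of the start peak (y axis) against the difference in log2(value + 1) of the RNA (x axis) for the 10 genes at 1, 6 and 10 h (circles, squares, triangles), with BDNF on the left and KCl on the right, bars for SE and filled symbols for called peaks. RNA differences reach 8.27 with BDNF and 9.52 with KCl, and the largest called change of a start peak is 0.95.

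The windows held the starts of 377 annotated genes, of which 168 were tested, 158 of them besides the 10. Of these 158, limma called 64 at BDNF 1 h, 82 at 6 h and 73 at 10 h, and 88, 107 and 86 with KCl, shares of 40.5%, 51.9%, 46.2%, 55.7%, 67.7% and 54.4% that can be read against those of all genes given above. Lgr4 has the start nearest to the intronic peak gained by BDNF at all times. Its RNA was at 423, 475 and 500 in the controls and at 401 and 420 after 1 h of BDNF. After 6 h of KCl it was at 797 and 828.9, a rise of 0.79 (limma adjusted p = 5.7e-09). Rlbp1, nearest to the peak of the largest gain, was at 374, 429 and 486 in the controls and at 511 and 476 at BDNF 1 h. At KCl 6 h it was at 572 and 537, a rise of 0.37 (limma adjusted p = 0.001). Both genes were named by the nearest start, and the gene holding each intron was not recorded.

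In each window the neighbour with the lowest p was also followed. In the Arc window this was Jrk, a gene for a DNA-binding protein, whose RNA fell from 189, 209 and 240 in the controls to 16.1 and 34.2 at KCl 1 h, by 3.12 (limma adjusted p = 6.5e-12), and which was at 192 and 192 at BDNF 1 h. The Jrk promoter peak (chr15:74709044-74709722) was at 72.5, 95.5 and 118 in the controls and at 71.0 and 76.8 at KCl 1 h, overlapping them, and closed at KCl 10 h by 0.62 ± 0.21 on the log2 scale (edgeR adjusted p = 0.064), a call lost without KCl 10 h library A (0.24), KCl 10 h library B (0.37), control 6 h library B (0.102) or control 10 h library B (0.13). In the Vgf window the lincRNA 4933404O12Rik fell by 2.26 at KCl 6 h, from 224, 236 and 250 to 49.2 and 47.5 (limma adjusted p = 7.1e-14). In the Btg2 window Adora1, the gene of the adenosine A1 receptor, rose by 0.99 at BDNF 1 h (limma adjusted p = 4.6e-11) and was at a difference of 0.04 at KCl 1 h. Of the other neighbours, Mlh3 near Fos fell by 1.54 at KCl 6 h, Nectin2 near Fosb rose by 1.24 and Etf1 near Egr1 by 0.88 at BDNF 1 h, Nrbf2 near Egr2 fell by 1.26 at KCl 1 h, Sfxn5 near Egr4 fell by 0.96 at KCl 10 h and Polg near Acan rose by 0.86 at BDNF 1 h (limma adjusted p from 1.3e-12 to 3.4e-08).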

How the data were processed

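ATAC-seq and RNA-seq of cortical neurons were analysed from tables of the whole series. For ATAC-seq the authors aligned reads with Bowtie2 to mm10, called peaks per sample with MACS2 and counted reads in consensus peaks made with DiffBind, and deposited a table described as normalised. Its values are all whole numbers with totals that differ between libraries, as unscaled counts would be, and were used as counts. What scaling they may carry is not given in the sources used here. For RNA-seq the authors aligned with TopHat2, and the deposited values are a normalised signal, the reads per gene divided by 1 DESeq2 size factor per sample. Dividing by the smallest step gave whole reads for 100% of the values (tolerance 0.01). Other deposited tables hold only the authors' own fold changes and p-values and were not used.

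Peaks with a mean count of at least 10 (56383 of 58177) were tested with edgeR 4.0.16 (robust quasi-likelihood, LOESS offsets with a span of 0.3) in R 4.3.3, over 18 libraries and 7 levels with the 6 controls pooled, after the study's design. RNA was tested with limma 3.58.1 (trend, robust) on log2(value + 1) for 16209 genes. Calls are at an adjusted p (Benjamini-Hochberg) below 0.1. The controls were compared in a model of 9 levels. Tables give only the group of an ATAC column, so library A and B are names by column order, and the letters of the RNA columns pair nothing either. Counts of replicates differed by more than sampling noise (chi-square per degree of freedom 2.04 to 2.58 for ATAC, 2.33 to 36.4 for RNA). The scripts were tested on simulated counts.

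The members and gene lists were chosen with earlier results of these data known. Named peaks are, per locus, the start peak and the gained, closing and differing peaks with the lowest p, the 5 largest gains at BDNF 1 h and at KCl 10 h, and the Arc enhancer. Every other peak called within 100 kb of a start was added after its values were seen. Named genes are the 10 and 1 neighbour per window, and others nearest a named peak were added after their values were seen. Annotation came from GRCm38 gene models, and sequences were read with pysam 0.24.0. A promoter peak was one that overlapped the stretch from 1000 bp before to 100 bp after any annotated transcript start. Alternatives were TMM (edgeR), DESeq2 1.42.0 size factors and Wald test, limma, other filters and thresholds, controls of the same time, peaks within 100 kb, edgeR on the recovered RNA reads, and leaving out each library. A count limits precision by counting error, and read depth set which low peaks could be tested.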

Additional observations from a re-analysis of the deposited data

Results flagged for a closer look

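Of 61 values checked for a library far from the others of its group, 2 stood apart among the 6 controls, and chance alone flags about 1 group in 20. At the Mfge8 promoter in the Acan window (chr7:79148688-79149395) control 1 h library A was at 99.7 scaled counts. In the RNA of Bdnf, control 10 h library A was lowest at 38.5 normalised reads.

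3 named peaks differed between times of the same stimulus by edgeR's test of that difference. The intronic peak nearest Rlbp1 in the Acan window (chr7:79336452-79336934) was higher at KCl 10 h than at KCl 1 h by 1.73 (SE 0.48, edgeR adjusted p = 0.055). This call was lost with limma (0.24) and without KCl 10 h library A (0.59) or KCl 1 h library B (0.60). The intronic peak nearest Lgr4 in the Bdnf window (chr2:109953122-109953658) was higher at KCl 10 h than at KCl 1 h by 0.92 (SE 0.26, edgeR adjusted p = 0.061). This call was lost with limma (0.23), with the DESeq2 Wald test (0.17) and without KCl 10 h library B (0.55) or KCl 1 h library B (0.62). The Ercc2 promoter of the Fosb window (chr7:19381635-19382485) was higher at BDNF 10 h than at BDNF 1 h by 0.62 (SE 0.17, edgeR adjusted p = 0.075), lost with DESeq2 size factors (0.11), with the DESeq2 Wald test (0.15) and without BDNF 10 h library A (0.31) or B (0.19) or BDNF 1 h library A (0.54) or B (0.14).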

How the results depend on the processing

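No paired analysis was possible because the ATAC columns carry no replicate numbers and the labels give none for the RNA columns. Of 111 calls at named peaks, 26 were kept under all alternatives, 27 of 111 when each library was left out and 58 of 111 under the other settings, and none changed direction. Of 99 RNA calls 85 were kept under all. The limit is the group size of 2, and a peak of few counts needs a large fold to be called. Causes were not tested, except that stricter filters and thresholds and fewer controls leave fewer peaks or samples by construction.

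Numbers of called peaks moved as follows. With a mean of at least 20 BDNF 1, 6 and 10 h gave 28, 8 and 13 calls, and BDNF against KCl at 10 h 1. At an adjusted p below 0.01 BDNF gave 25, 12 and 8, KCl 2, 3 and 3, BDNF against KCl 8, 0 and 0, and 10 h against 1 h 0 for BDNF and 0 for KCl. With controls of the same time BDNF 6 and 10 h gave 12 and 10, and KCl 6 and 10 h 3 and 12. With TMM scaling KCl gave 31, 29 and 39 calls, BDNF against KCl at 6 and 10 h 11 and 7, and KCl 10 h against 1 h 9. With DESeq2 size factors these were 35, 34 and 47, 12 and 7, and 9, and BDNF 10 h against 1 h gave 1. The DESeq2 Wald test gave 28 at KCl 6 h, 41 at KCl 10 h, 8 for BDNF against KCl at 6 h and 0 for BDNF 10 h against 1 h. With limma KCl 1 and 6 h gave 13 and 27, BDNF against KCl at 1 and 6 h 16 and 9, and KCl 10 h against 1 h 0. With TMM 15 of the 29 calls at KCl 6 h and 13 of the 31 at KCl 1 h were gained. Within 100 kb (93 peaks) the shares called were 16.1% at BDNF 1 h, 2.15% at BDNF 10 h and 1.08% at KCl 6 h, against 12.2%, 6.23% and 4.25% of all members.

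Leaving out 1 library gave 23 to 43, 9 to 21 and 10 to 23 calls for BDNF at 1, 6 and 10 h, 4 to 20, 5 to 17 and 5 to 21 for KCl, 6 to 22, 0 to 4 and 0 to 2 for BDNF against KCl, 0 to 1 for BDNF 10 h against 1 h and 0 to 2 for KCl 10 h against 1 h.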
